A study of Mus musculus with 33 samples.

Results

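Ecm1, the gene of extracellular matrix protein 1, was followed over 33 libraries of mouse cells in 11 groups of 3, as 1 of 52631 genes in the deposited expression table. It was chosen by its FPKM values in these same libraries, which differed widely between retinoic acid alone and retinoic acid with CHIR, and between days. Its own levels and differences are therefore given as a description, without a test. The study used mouse embryonic stem cells of strain 129S2/SvPas (mES), grown with LIF at 1000 U/mL and 15% serum on mouse embryonic fibroblasts that mitomycin had stopped from dividing. In the RA arm these stem cells were plated on gelatin and given all-trans retinoic acid at 10 µM. In the RA/CHIR arm they were given the same dose together with CHIR at 5 µM. CHIR is generally short for a compound that inhibits the kinase GSK3 and so stabilises beta-catenin, the messenger of Wnt signalling. Both arms were sampled after 4, 7 and 10 days with the inducers in 15% serum, and again at day 16, after 6 further days in 10% serum for which the labels list no inducer. A smooth muscle cell line (SMC) and a line of extraembryonic endoderm stem cells (XEN), both kept in 15% serum, were measured alongside. The labels do not give CHIR without retinoic acid as a group, nor do they call the replicates separate cultures, so the p-values below may measure technical spread only.

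ECM1 is a secreted glycoprotein that binds other proteins of the extracellular matrix, among them perlecan, fibulin-1, fibronectin and the protease MMP9. In humans, loss of the gene causes lipoid proteinosis, in which the skin and mucosa thicken with deposited matrix, and in mouse liver the protein is known to hold transforming growth factor beta (TGF-beta) in its latent, inactive form. Retinoic acid acts through nuclear receptors on DNA, and in stem cell cultures it drives cells out of pluripotency, while Wnt/beta-catenin signalling acts through TCF/LEF factors.

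The gene (ENSMUSG00000028108) lies on chromosome 3, from 95734147 to 95739569 on the minus strand of GRCm38, a span of 5423 bases. GENCODE M21 lists 10 transcripts, of which 8 code for protein. The longest, Ecm1-202, has 11 exons, 1900 bases and a coding part of 559 codons, and Ecm1-201 has 11 exons and 558 codons. The deposited values are per gene, so these transcripts cannot be told apart. The miRNA gene Mir7014 lies within the gene body and is listed at 0 in every group mean. The promoter is shown because the level of Ecm1 moved further than that of almost any other gene. It is the 250 bases before the start of the transcript at chr3:95739570-95739819, minus strand, from RefSeq on GRCm38.p6, and the capitals mark 3 short motifs.
Ecm1: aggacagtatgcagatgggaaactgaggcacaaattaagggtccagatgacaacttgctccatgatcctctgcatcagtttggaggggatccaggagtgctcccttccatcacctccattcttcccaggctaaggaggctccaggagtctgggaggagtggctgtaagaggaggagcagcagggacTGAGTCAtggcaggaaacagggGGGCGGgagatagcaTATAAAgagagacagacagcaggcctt

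From the 5′ end, the capitals are TGAGTCA, the letters of an AP-1 site, at positions -64 to -58 from the start of the transcript, and GGGCGG, a GC box, at -42 to -37. The last, TATAAA, is the core promoter element named after these letters and lies at -27 to -22. Each motif was searched on both strands, and the marked matches do not overlap each other. Over the same 250 bases of 27025 promoters in the table, 4.43% hold TGAGTCA, 32.9% hold GGGCGG and 13% hold TATAAA. The letters AGGTCA, the element of retinoid receptors, are in 13.8% of promoters and not in this window, and neither is CTTTGAA or CTTTGAT of TCF/LEF factors, found in 7.67%. AGATAA, a form of the GATA factor site (10.3% of promoters), and CAGCTG, a kind of E box (12.8%), also had no match in this window. Other forms of these sites were not searched. Such matches are letters and not measured binding.

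The columns of FPKM, in which fragments are scaled to the length of the transcript and to the size of the library, summed to between 597010 and 1086371, and 11573 to 13662 genes reached 1 FPKM in a library. The number of fragments behind a value is not known. For the labels mES, XEN and SMC, a marker of each is given. Pou5f1, a factor of pluripotency, stood at 1325.8 ± 332.4 FPKM (SD, n = 3) in mES, Sox17, an endoderm factor, at 189.1 ± 16.7 in XEN, and Acta2, smooth muscle actin, at 11435 ± 138.2 in SMC. Such markers need not single out a line. Primitive endoderm markers, Sox17 among them, summed to 994.1 to 1056 FPKM in XEN and 2048 to 2167 in RA/CHIR-16d. The mES libraries also held fibroblast markers at a summed 40.01 to 67.0 FPKM, in cultures that contained feeder fibroblasts. These markers summed to 33.9 to 35.8 FPKM in RA-4d and 30.7 to 40.7 in RA/CHIR-4d. A part of the feeders in the mES sums was not tested.

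In mES, Ecm1 was at 21.3, 15.7 and 18.8 FPKM in the 3 libraries. After 4 days of retinoic acid the libraries were at 747.8, 683.9 and 720.8, after 7 days at 2966, 2924 and 2997, and after 10 days at 6233, 6052 and 6119. At day 16 of the RA arm they were at 369.0, 440.2 and 461.3. With CHIR added, Ecm1 was at 20.1, 20.9 and 24.8 FPKM on day 4 and at 35.8, 33.4 and 38.9 on day 7. The RA/CHIR libraries stood at 67.3, 72.0 and 81.7 on day 10 and at 39.8, 40.6 and 45.4 on day 16. SMC held 385.5, 355.1 and 338.5 FPKM, and XEN 33.2, 33.3 and 46.4. The 12 libraries of the RA arm and the 3 of SMC were thus all at 338.5 FPKM or more, and every other library was at 81.7 or less.

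**Figure D1:**
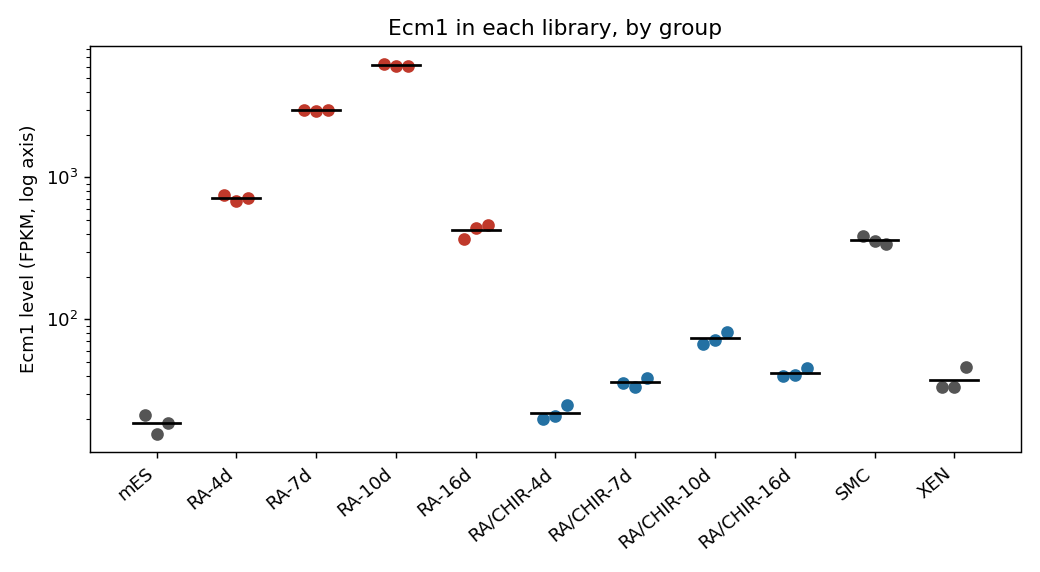
Ecm1 in each library (points) by group, in FPKM on a log axis, with the mean of each group's 3 libraries as a bar; red is the RA arm, blue the RA/CHIR arm, and grey the untreated cells and the lines. Both arms are highest at 10 days, with means of 6135 FPKM with RA and 73.7 FPKM with RA/CHIR.

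Ordered by mean, Ecm1 was highest in RA-10d (6135 ± 91.1 FPKM, SD, n = 3), followed by RA-7d (2962 ± 36.5), RA-4d (717.5 ± 32.1), RA-16d (423.5 ± 48.3), SMC (359.7 ± 23.8) and RA/CHIR-10d (73.7 ± 7.32). Then came RA/CHIR-16d (41.9 ± 3.05), XEN (37.6 ± 7.60), RA/CHIR-7d (36.0 ± 2.71), RA/CHIR-4d (22.0 ± 2.54) and mES (18.6 ± 2.80). Libraries of neighbouring groups overlapped at 4 places in this order: RA-16d with SMC, RA/CHIR-16d with XEN, XEN with RA/CHIR-7d, and RA/CHIR-4d with mES. The other 6 neighbouring pairs did not overlap. For comparison, the share of all 16508 genes tested whose 3 libraries did not overlap was 41.4% for RA-10d and RA-7d, 48.7% for RA-7d and RA-4d, 61.7% for RA-4d and RA-16d, 73.2% for SMC and RA/CHIR-10d, 61% for RA/CHIR-10d and RA/CHIR-16d, and 44.5% for RA/CHIR-7d and RA/CHIR-4d. For the 4 pairs that overlapped in Ecm1, the share was 68%, 67%, 65.6% and 62.7%. In bulk samples of this kind, fewer cells that express a gene and less RNA per cell cannot be told apart.

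Up to day 10 of the RA arm, the steps of Ecm1 grew smaller as ratios and larger in FPKM. The mean at day 4 was 38.6 times that of mES, a log2 difference of 5.21 on the log2(FPKM + 1) scale used throughout, which was the 17th largest of the 16508 genes. No library of RA-4d overlapped with mES, as was so for 67.3% of genes. From day 4 to day 7 the mean was 4.13 times higher (log2 difference 2.05, rank 77 from the top), and from day 7 to day 10 it was 2.07 times higher (1.05, rank 199). Over the whole 10 days the ratio came to 330.0, a log2 difference of 8.30, and no gene tested had a larger one between mES and RA-10d. The libraries of those groups did not overlap, which held for 72.3% of genes.

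By day 10 of retinoic acid, Ecm1 was among the most abundant transcripts of the culture. Its rank among protein-coding genes was 4497 to 5475 in mES, 83 to 95 in RA-4d, 12 to 13 in RA-7d and 4 in each RA-10d library, where it made up 1.07% to 1.09% of the FPKM of protein-coding genes. On the mean of RA-10d, the genes above it were the mitochondrial mt-Atp8, mt-Co1 and mt-Nd1. Next below were Eef1a1, a translation elongation factor, at 5407 FPKM and the ribosomal gene Rps24 at 5244 FPKM. In the RA/CHIR arm the rank was 3823 to 4511 on day 4, 2507 to 2900 on day 7 and 1116 to 1384 on day 10. In RA-10d 57 protein-coding genes reached a mean of 1000 FPKM, and 4 of them stood at least 3 above mES on the log2 scale. Besides Ecm1 these were Clu, the chaperone clusterin, Igf2, an insulin-like growth factor, and Lgals1, the galactose-binding galectin 1, all named after their values were seen.

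Addition of CHIR was accompanied by a far lower level at each day. The RA mean was 32.7 times the RA/CHIR mean on day 4, 82.2 times on day 7, 83.3 times on day 10 and 10.1 times on day 16. Between single libraries the ratio ran from 27.5 to 37.2 on day 4, from 75.3 to 89.6 on day 7, from 74.1 to 92.6 on day 10 and from 8.12 to 11.6 on day 16. As log2 differences of RA/CHIR minus RA these were -4.97, -6.32, -6.37 and -3.30. On that scale Ecm1 was 2nd from the lowest of the 16508 genes on day 4, lowest on day 7, 2nd from the lowest on day 10 and 202nd on day 16. The arms did not overlap on any day, which was also so for 55.2%, 56.7%, 62.4% and 62.9% of all genes on days 4, 7, 10 and 16. Since the gene was chosen for this contrast, nothing is read from these shares.

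In the RA/CHIR arm Ecm1 was also highest on day 10, but day 16 followed as the next highest, whereas in the RA arm day 16 was the lowest of the 4 days. On day 4 its mean was 1.18 times that of mES (log2 difference 0.23), within the range of the libraries. From day 4 to day 7 it was 1.64 times higher (0.69) and from day 7 to day 10 it was 2.04 times higher (1.01), the latter close to the factor of 2.07 in the RA arm over the same days. The libraries of day 10 and day 7 did not overlap, as was so for 37.4% of genes. Against mES, the RA/CHIR-10d mean was 3.96 times higher (1.94), without overlap between libraries, as for 70.2% of genes.

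After day 10, when the labels list neither inducer and a lower serum content, Ecm1 was lower in both arms. The change of medium, the serum and the further days cannot be told apart. The RA mean at day 16 was 14.5 times lower than at day 10 (log2 difference -3.86), and the libraries did not overlap, as for 48% of genes. This was the 7th most negative difference of all genes, after Cyp26b1 (an enzyme that degrades retinoic acid), Gm14303, Gm45889, Mir703, Exosc6 and n-R5s193. Cyp26b1 stood at 60.4 ± 3.27 FPKM in RA-10d and 0.980 ± 0.154 in RA-16d, and the small RNA genes Mir703 and n-R5s193 were listed at 0 in RA-16d. Of the 57 protein-coding genes at 1000 FPKM or more in RA-10d, Ecm1 was the only one that was lower at day 16 by 1 or more on the log2 scale. It remained 22.8 times above mES in RA-16d (log2 difference 4.44), without overlap, as for 72.4% of genes. In the RA/CHIR arm the mean was 1.76 times lower at day 16 than at day 10 (log2 difference -0.80).

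Ecm1 differed between the reference lines, whose levels overlapped with those of the day 16 groups. SMC was at 19.4 times the mES mean (log2 difference 4.21), without overlap, as for 76.2% of genes. XEN was at 2.02 times the mES mean (0.97), also without overlap, as for 71.3% of genes. RA-16d differed from SMC by 0.23 and RA/CHIR-16d from XEN by 0.17 on the log2 scale, both with overlapping libraries. SMC ranked Ecm1 between 321 and 351 among protein-coding genes, RA-16d between 168 and 230, and XEN between 2466 and 3325.

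The genes most like Ecm1 were found by the Pearson correlation of log2(FPKM + 1) over all 33 columns, which share the 11 groups and are not independent points. The 10 highest were Fbxo32 (r = 0.945), Abi1 (0.944), Lca5l (0.943), Rasgrp3 (0.937), Zfp641 (0.929), Nr2f1 (0.926), Ctxn1 (0.923), Sh3bgr (0.921), Ednra (0.916) and Vstm4 (0.914). The median r over all genes tested was -0.01, and 16 genes reached 0.9. Fbxo32, a ubiquitin ligase known from muscle atrophy, was at 0.214 ± 0.0729 FPKM in mES, 5.63 ± 0.0538 in RA-10d and 1.45 ± 0.278 in RA/CHIR-10d. Abi1, an adaptor of actin remodelling, was at 25.3 ± 1.63, 68.9 ± 0.726 and 33.7 ± 1.05 in the same groups. Nr2f1, an orphan nuclear receptor that retinoic acid is known to induce, was at 0.0464 ± 0.00172, 44.9 ± 3.97 and 0.388 ± 0.356. Ednra, a receptor for endothelin, was at 0.108 ± 0.0873, 18.9 ± 1.22 and 0.843 ± 0.172.

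Since these genes were picked for their likeness to Ecm1 over the same columns, a like contrast between the arms and a like peak follow from the choice. In part, so does a lower mean in RA-16d than in RA-10d. Their levels were far below that of Ecm1. The highest group mean among the 20 most like genes was 95.1 FPKM, for Ctxn1. Of the first 10, 7 had their highest mean in RA-10d, as Ecm1 did, and 3 had it in RA-7d. From RA-10d to RA-16d the mean was lower in all of the 10 and in 18 of the 20, as for Ecm1. It was lower by at least 1 on the log2 scale in 3 of the 10 and 5 of the 20: Lca5l by -1.04, Rasgrp3 by -1.45 and Vstm4 by -1.22 among the 10, whereas Nr2f1 stood at 40.8 ± 4.41 FPKM in RA-16d. Of all genes, 1.8% were called lower from RA-10d to RA-16d, where a call also needed an adjusted p under 0.05 (limma). In 17 of the 20 with a promoter in the table, 0 held TGAGTCA, 10 held GGGCGG, 4 held TATAAA and 4 held AGGTCA. The list depended on the columns used. Over the 24 columns of the arms alone, 3 of the 20 were shared, and the first were Grhl1 (r = 0.979) and Slc16a12 (0.978), named after their values were seen. Slc16a12, a monocarboxylate carrier, was at 11.3 ± 0.765 FPKM in RA-10d, 2.54 ± 0.207 in RA-16d and 0.879 ± 0.0674 in RA/CHIR-10d, while in SMC it was at 0.0801 ± 0.0561.

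The genes of opposite course were Slc29a1 (r = -0.895), Lncenc1 (-0.875), Tuba4a (-0.873), Glud1 (-0.873) and Larp7 (-0.864), among 27 genes at -0.8 or below. Slc29a1, a nucleoside carrier, was at 384.1 ± 18.4 FPKM in mES, 10.4 ± 1.57 in RA-10d and 65.6 ± 3.84 in RA/CHIR-10d. Tuba4a, an alpha tubulin, was at 13.1 ± 2.48 in RA-10d and 91.8 ± 8.24 in RA/CHIR-10d. Glud1, a mitochondrial enzyme of glutamate breakdown, was at 193.7 ± 6.18 FPKM in mES and 47.6 ± 1.10 in RA-10d.

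**Figure D2:**
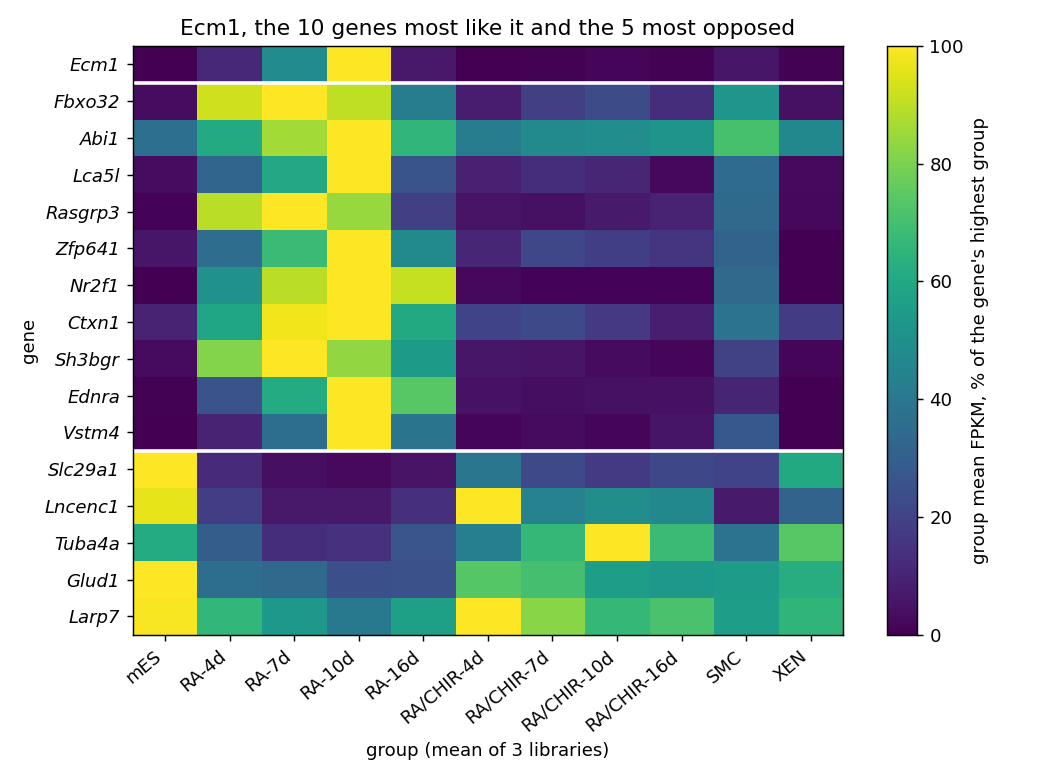
Group means in FPKM of Ecm1, the 10 genes most like it and the 5 most opposed, each as a percent of the gene's highest group mean (colour), by group. Ecm1 is near its maximum in RA-10d alone, where its mean of 6135 FPKM was 2.07 times that of RA-7d, while several like genes, such as Nr2f1, remain bright in RA-16d.

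The course of the genes around Ecm1 was compared with that of Ecm1. Within 250 kb on either side, GENCODE M21 lists 30 other genes, 18 of them protein-coding, and 21 passed the filter of at least 1 FPKM in at least 3 libraries. Tars2, a mitochondrial threonine tRNA synthetase on the same strand, ends 406 bases before Ecm1 starts. Tars2 was at 37.2 ± 3.66 FPKM in mES, 26.0 ± 1.76 in RA-10d and 26.3 ± 0.754 in RA/CHIR-10d, a log2 change of 0.02 ± 0.11 between the arms (limma, adjusted p = 0.934). Over the 33 columns the correlation of a tested neighbour with Ecm1 ran from -0.62 to 0.72, at a median of 0.02, beside -0.01 over all genes. It was at least 0.5 in 3 of the 21: Plekho1 (r = 0.72), BC028528 (0.63) and Ensa (0.54). Within the arms BC028528 had its highest mean in RA-10d, as Ecm1 did, and stood at 12.1 ± 1.82 FPKM in RA-16d and 25.0 ± 1.22 in SMC. Genes were called at an adjusted p (limma, Benjamini-Hochberg) under 0.05 and a log2 change of at least 1 in size. Of the 21 tested, RA-4d over mES had 2 higher and 3 lower, beside 23.4% of all genes called (11.7% in either direction). RA/CHIR-4d over mES, which shares the mES libraries, had 1 higher and 3 lower, beside 9.06% and 9.13% of all genes. In the 3 later steps of the RA arm limma called none of the 21. Of all genes 4.81%, 1.99% and 9.17% were called, shares at which few or none of 21 would be. At an unadjusted p under 0.05, without the threshold on the change, 5, 7 and 4 of the 21 differed in those steps. None was called from RA/CHIR-4d to RA/CHIR-7d or from RA/CHIR-7d to RA/CHIR-10d either, beside 2.72% and 1.07% of all genes, with 5 and 9 at an unadjusted p under 0.05.

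Between the arms the neighbours that differed lay up to 250 kb away. Ecm1 was chosen for its contrast between the arms, so a smaller change in its neighbours follows from that choice. On day 4, 1 was higher with CHIR and 2 were lower, beside 3.34% and 4.28% of all genes (7.63% called in all). On day 7, 2 were lower, beside 6.61% of all genes lower and 10.7% called. On day 10, 4 were lower, beside 9.07% lower and 15.4% called, and on day 16, 2 were lower, beside 12.9% lower and 21.3% called. Adamtsl4, a secreted relative of the ADAMTS proteases that binds microfibrils, lies 46.2 kb beyond the end of Ecm1. It was at 7.44 ± 0.834 FPKM in RA-10d and 3.30 ± 1.59 in RA/CHIR-10d (log2 change -1.03 ± 0.24, limma adjusted p = 7.83e-04), and the call was lost at a change of -0.83 without RA/CHIR-10d replicate 2, -0.95 without RA/CHIR-10d replicate 3, -0.97 without RA-10d replicate 1 and -0.94 with quantile normalization. Plekho1, which takes part in signalling in bone and muscle, was at 34.3 ± 2.91 against 13.6 ± 1.71 (-1.27 ± 0.12) and BC028528 at 18.6 ± 4.79 against 3.81 ± 0.643 (-2.0 ± 0.19). Car14, a membrane carbonic anhydrase, was low in both, at 2.09 ± 0.518 against 0.475 ± 0.578 (-1.12 ± 0.18), and it was no longer called at -0.88 without RA/CHIR-10d replicate 3 or at -0.96 with quantile normalization. Hormad1, a meiotic chromosome protein and the gene higher with CHIR on day 4, was at 2.13 ± 0.640 against 0.355 ± 0.154 FPKM (1.19 ± 0.14).

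**Figure D3:**
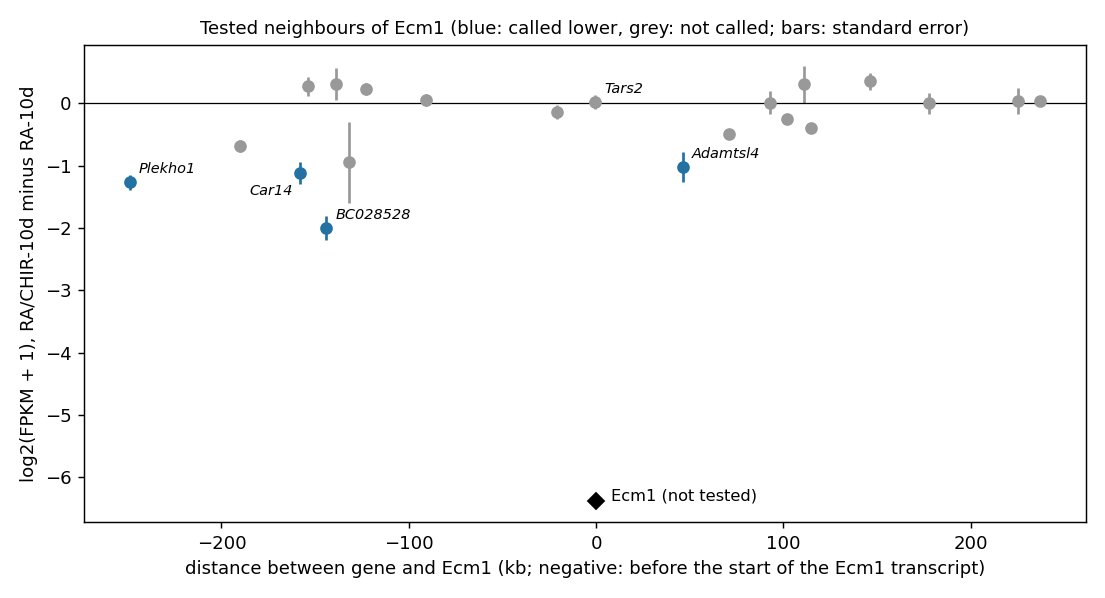
Log2 change of RA/CHIR-10d minus RA-10d (vertical) against the distance in kb between a tested gene and Ecm1 (horizontal) for the 21 neighbours, with standard error; blue genes were called lower, grey genes were not called, and the black diamond is Ecm1, which was not tested. Ecm1, chosen for its contrast between the arms, is at -6.37, and the lowest neighbour, BC028528, at -2.0.

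In the lines more of the neighbours differed from mES, 10 of 21 in XEN (4 higher, 6 lower) and 10 of 21 in SMC (5 higher, 5 lower). Of all genes 33.1% were called in XEN, 14.4% higher and 18.7% lower, and 43.2% in SMC, 21% higher and 22.2% lower. In SMC, Ctsk, the collagen-degrading cathepsin K, was at 145.4 ± 5.01 FPKM, against 0.918 ± 0.469 in mES and 1.01 ± 0.228 in RA-10d. Adamtsl4 was at 11.3 ± 0.719 FPKM in SMC and 9.0 ± 0.859 in XEN, against 1.73 ± 1.11 in mES. From day 10 to day 16 of the RA/CHIR arm, 2 neighbours rose, Adamtsl4 and Car14, and 2 fell, Ciart and Rps10-ps1, beside 8.47% and 6.28% of all genes (14.8% called in all). That step differed between the arms, by the interaction term of the limma fit, in 3 of the 21. The difference, RA/CHIR minus RA, was positive in Adamtsl4 and Car14 and negative in Ciart, beside 6.02% and 8.81% of all genes.

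Of 10 genes whose proteins are known to bind ECM1, 8 were tested, and Mmp9 and Lama3 were too low. Their summed level ran from 436.1 to 451.2 FPKM in RA-10d, where Ecm1 alone had at least 6052, and from 534.7 to 558.4 in RA/CHIR-10d. Hspg2, which encodes perlecan, rose from 48.4 ± 5.61 FPKM in mES to 146.7 ± 4.48 in RA-4d (log2 change 1.58 ± 0.08, limma adjusted p = 1.78e-15). On day 10 it stood at 113.9 ± 4.06 with RA and 119.7 ± 1.42 with RA/CHIR (0.07 ± 0.08, adjusted p = 0.476). Fbln1, fibulin-1, was higher with CHIR on day 10, at 142.3 ± 5.80 against 51.9 ± 1.83 FPKM (1.44 ± 0.06), and Fn1, fibronectin, was lower, at 45.1 ± 2.04 against 104.9 ± 2.53 (-1.20 ± 0.12). The other 6 were not called on day 10, and the median change of the 8 was 0.48, beside 0 over all genes, of which 6.35% were higher and 9.07% lower. From RA-10d to RA-16d 4 of the 8 rose, Fn1, Fbln1 and Lamb3 among them, and none fell, beside 7.37% and 1.8% of all genes, while Ecm1 was 14.5 times lower.

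Of 16 genes of TGF-beta ligands and of the proteins that hold them latent or release them, 15 were tested. On day 10, 4 of the 15 were lower with CHIR and none was higher, at a median of -0.72, and 9.07% of all genes were lower and 6.35% higher. The protease gene Mmp2 was at 18.3 ± 1.76 against 209.0 ± 5.66 FPKM (-3.44 ± 0.14), the ligand gene Tgfb3 at 7.28 ± 0.909 against 74.3 ± 2.18 (-3.19 ± 0.10), the protease gene Adamts1 at 4.03 ± 0.242 against 14.8 ± 0.0566 (-1.65 ± 0.07), and Ltbp1, a latent TGF-beta binding protein, at 13.8 ± 0.429 against 37.3 ± 1.80 (-1.37 ± 0.09). By day 16, 12 of the 15 were lower with CHIR and 1, Itgb6, was higher, at a median of -2.17 (-0.01 over all genes), beside 12.9% of all genes lower and 8.41% higher. Tgfb3 was then at 2.07 ± 0.355 against 152.6 ± 15.8 FPKM (-5.65 ± 0.10). These genes did not follow Ecm1 after day 10 of the RA arm, where 11 of the 15 rose and none fell, at a median of 1.11 (0.01 over all genes), beside 7.37% of all genes higher and 1.8% lower.

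Among 13 genes of TGF-beta receptors, Smads and response, all tested, 2 were lower with CHIR on day 10 and none was higher, beside 9.07% and 6.35% of all genes, a share not far from that background. Smad3, which carries the signal to the nucleus, was at 5.62 ± 0.260 against 26.0 ± 1.82 FPKM (-2.03 ± 0.08), and Smad6, an inhibitory Smad, at 14.4 ± 1.41 against 38.7 ± 1.52 (-1.37 ± 0.16). Smad3 also stood among the genes most like Ecm1 over the 24 columns of the arms (r = 0.958), a choice from which its contrast between the arms follows. Over all 33 columns its r was 0.756, and in XEN Smad3 was at 18.0 ± 2.06 FPKM. From RA-10d to RA-16d 4 of the 13 rose and 1 fell, beside 7.37% and 1.8% of all genes. Ctgf, a matrix-associated TGF-beta target, went from 43.6 ± 4.09 to 825.1 ± 320.0 FPKM (4.15 ± 0.14) and Tgfbi from 21.5 ± 1.27 to 200.4 ± 25.1 (3.16 ± 0.07).

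Set among 26 other genes of secreted matrix glycoproteins, Ecm1 was the most abundant in RA-7d and RA-10d and 2nd after Sparc in RA-4d. It was 4th in RA-16d, 8th in SMC, 7th in XEN and 10th in mES, and between 5th and 11th in the RA/CHIR groups. Sparc, a collagen-binding matrix protein, stood at 1100.0 ± 7.53 FPKM in RA-10d and 2675 ± 38.0 in RA/CHIR-10d, the reverse of the order of Ecm1 (log2 change 1.28 ± 0.07). On day 10, 11 of the 25 tested glycoprotein genes were lower with CHIR and 3 were higher, at a median of -0.98, beside 9.07% and 6.35% of all genes. The microfibril gene Mfap2 was at 0.757 ± 0.101 against 50.5 ± 2.48 FPKM (-4.87 ± 0.18), Mfap4, also of microfibrils, at 0.444 ± 0.696 against 30.2 ± 1.5 (-4.53 ± 0.25), and Emilin1, of elastic fibres, at 2.78 ± 0.280 against 34.6 ± 2.28 (-3.24 ± 0.21). Spp1, osteopontin, was higher, at 227.8 ± 4.90 against 11 ± 1.59 (4.26 ± 0.13).

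The step from day 10 to day 16 of the RA arm set Ecm1 apart from most of this list in direction. Of the 25 genes 19 rose and 1 fell, at a median of 1.86, beside 7.37% and 1.8% of all genes. Postn, periostin, rose from 4.31 ± 0.901 to 567.8 ± 29.2 FPKM (6.75 ± 0.20), Eln, elastin, from 0.999 ± 0.359 to 128.8 ± 33 (6.01 ± 0.14) and Fn1 from 104.9 ± 2.53 to 486.9 ± 105.6 (2.18 ± 0.12). Nid2, a basement membrane linker, was the one that fell, from 154.5 ± 8.34 to 73.6 ± 5.81 (-1.06 ± 0.05). Of all genes called in this step, 80.4% were higher, or 71.1% after quantile normalization.

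**Figure D4:**
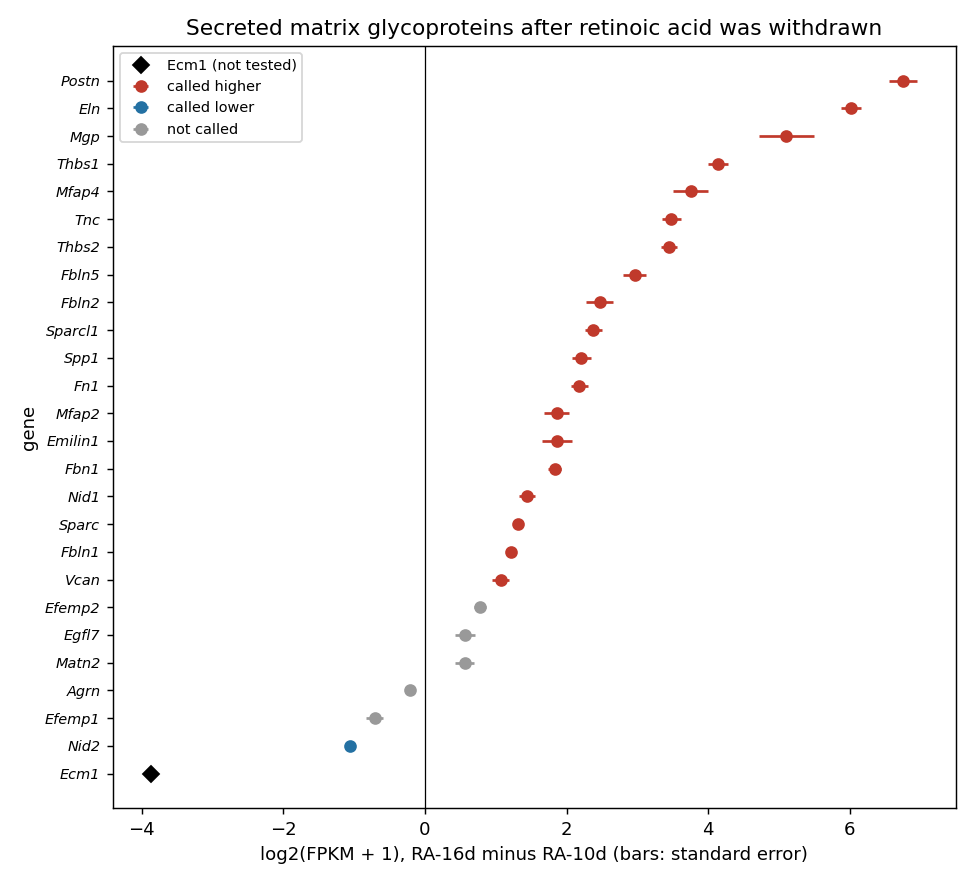
Log2 change from RA-10d to RA-16d of the 25 tested genes of secreted matrix glycoproteins, sorted, with standard error, and of Ecm1 (black diamond), which was not tested. Ecm1 is at -3.86, and the list runs from Nid2 at -1.06 to Postn at 6.75.

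The known targets of both inducers were compared with Ecm1. Of 12 genes of the retinoid response, 10 rose from mES to RA-4d and 10 from mES to RA/CHIR-4d, 2 comparisons that share the mES libraries, beside 11.7% and 9.06% of all genes (18.2% called in all in the latter). In the latter comparison the other 2, Tgm2 and Rara, fell, whereas none fell from mES to RA-4d. Ecm1 was at a log2 difference of 5.21 in the former and 0.23 in the latter. On day 10, 7 of the 12 were lower with CHIR and 1 was higher, beside 9.07% and 6.35% of all genes. Tgm2, a transglutaminase, was at 2.05 ± 0.365 against 93.2 ± 0.421 FPKM (-4.96 ± 0.13), and Aldh1a2, which makes retinoic acid, at 1.82 ± 0.188 against 14.7 ± 0.981 (-2.48 ± 0.12). Cyp26a1, which degrades retinoic acid, was higher with CHIR, at 1376 ± 22.9 against 177.2 ± 7.15 FPKM (2.95 ± 0.12). Cyp26a1 included, the 12 summed to 1717 to 1762 FPKM in RA/CHIR-10d and 867.9 to 875.7 in RA-10d. Earlier in the RA arm they summed to 1705 to 1796 on day 4 and 1092 to 1099 on day 7. Their sum in the RA arm thus became lower up to day 10, while Ecm1 became higher. From RA-10d to RA-16d 4 of the 12 fell, among them Cyp26b1 (-4.96 ± 0.10), Rarb (-1.94 ± 0.19) and Stra6 (-1.07 ± 0.11), and 2 rose, beside 1.8% and 7.37% of all genes. Over that step the labels no longer list retinoic acid.

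Of 12 Wnt/beta-catenin targets, 11 were higher with CHIR on day 4, 10 on day 7 and 7 on day 10, and none was lower on those days. The shares of all genes that were higher were 3.34%, 4.06% and 6.35%. On day 10 Notum, a secreted Wnt inhibitor, was at 102.9 ± 3.04 against 14.3 ± 0.651 FPKM (2.77 ± 0.15), Dkk1, another, at 10.54 ± 0.756 against 0.901 ± 0.303 (2.61 ± 0.16), Axin2 at 47.9 ± 1.59 against 18.3 ± 1.45 (1.35 ± 0.14) and Nkd1 at 104.9 ± 3.05 against 40.8 ± 2.82 (1.34 ± 0.13). On day 16, with CHIR no longer listed, 6 of the 12 were lower in the RA/CHIR arm and 1 was higher. Of all genes 12.9% were lower and 8.41% higher, while Ecm1 was still 10.1 times lower in the RA/CHIR arm than in the RA arm. Within the RA arm the targets became higher along with Ecm1. They summed to 22.4 to 23.4 FPKM on day 4, 51.0 to 53.2 on day 7 and 107.8 to 115.7 on day 10. From day 4 to day 7, 4 rose and 1 fell, beside 4.81% of all genes called. From day 7 to day 10, 3 rose and none fell, beside 1.99% called. From RA-10d to RA-16d 3 fell and none rose, beside 1.8% and 7.37% of all genes.

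Markers of several cell types also differed between the arms and between days, in part unlike Ecm1. Their part in the levels of Ecm1 was not tested. The counts of markers below stand beside 9.07% of all genes lower and 6.35% higher with CHIR on day 10, and 7.37% rising and 1.8% falling from RA-10d to RA-16d. Mesothelium markers summed to 8.90 to 19.5 FPKM in mES, 205.1 to 214.3 in RA-4d, 590.9 to 621.4 in RA-7d, 602.6 to 619.5 in RA-10d and 636.6 to 713.0 in RA-16d, with Muc16 at 0 in mES and RA-4d. In RA/CHIR-10d they summed to 193.8 to 201.3, again with Muc16 at 0. There 9 of the 10 were lower than with RA, led by Wt1 (-6.40 ± 0.08) and Upk3b (-5.85 ± 0.10), and Krt19 was not called. All 10 reached 1 FPKM in every library of RA-10d, but only 4 did in RA-4d and 2 in RA/CHIR-10d. In XEN, an endoderm line, the markers also summed to 199.6 to 244.7. Unlike Ecm1, 4 of the 10 rose from RA-10d to RA-16d and none fell, and in SMC, where Ecm1 was at 359.7 FPKM, these markers summed to only 14.9 to 19.9.

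Smooth muscle markers summed to 1257 to 1278 FPKM in RA-10d and 114.8 to 122.5 in RA/CHIR-10d, and 7 of the 9 tested were lower with CHIR, led by Actg2 (-5.59 ± 0.24) and Acta2 (-3.71 ± 0.16). All 9 rose from RA-10d to RA-16d, where they summed to 8984 to 10341, and in SMC they summed to 18669 to 19338. Fibroblast markers summed to 228.8 to 238.8 in RA-10d, 3022 to 3726 in RA-16d and 31.1 to 32.8 in RA/CHIR-10d, and 9 of the 10 rose in the RA arm after day 10. In SMC the fibroblast markers summed to 12047 to 12386. Both lists had their highest sums in SMC, where Ecm1 was at 359.7 FPKM, against 6135 in RA-10d. Primitive endoderm markers, in contrast, summed to 254.5 to 270.6 in RA-10d and 1459 to 1514 in RA/CHIR-10d, where 8 of the 10 were higher and 2 lower. Keratinocyte markers, included because ECM1 is well known in skin, summed to 9.45 to 11.9 in RA-10d and 3.18 to 5.19 in RA/CHIR-10d, with Dsg3 and Flg at 0 in both groups.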

How the data were processed

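RNA of 33 libraries was sequenced as 150 bp paired reads after selection of poly(A) RNA, to about 25M read pairs each, per the labels' protocols. The submitters' processing notes name GRCm38 as the build and, without parameters, Cuffdiff, Cufflinks, HISAT2 2.0.4 and Trimmomatic 0.33. The deposited table gives FPKM as the authors computed it. It holds no fragment counts, so depth and counting intervals are unknown, and its counting is not stated to use strand.

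The scale was log2(FPKM + 1), unscaled otherwise, also for standard errors. Genes reaching 1 FPKM in 3 or more libraries (16508) entered limma 3.58.1 (R 4.3.3), which fitted 1 mean for each of the 11 groups with a trend in the prior variance (22 residual and a median of 3.05 prior degrees of freedom). Tests were two-sided, with Benjamini-Hochberg adjustment in each comparison across the whole set of 16508. Calls needed an adjusted p below 0.05 together with a change of 1 or more on the log2 scale, and "rose", "fell", "higher" and "lower" of a tested gene mean such a call. The fit was tested on simulated data. Of the identifiers 52398 matched GENCODE M21, 13 symbols that a spreadsheet had turned into dates were restored, and 198 genes sharing a symbol were not named singly.

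Named genes are the 10 most like and 5 least like Ecm1, tested neighbours within 250 kb, up to 4 called members of each gene list (2 for cell type markers) with the largest change on day 10, and members on which a result turns. Some members of the lists are counted but not reported here by name. Ecm1, the gene lists and the tests were chosen with earlier results of these data known. Alternatives were scaling with factors of the TMM kind, quantile normalization, a pseudocount of 0.1, other filters, no variance trend, a fit of only the groups compared, a replicate block and leaving out each library. Python 3.11.15 with pandas 2.3.3 and matplotlib 3.10.9 was used for joins and figures.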

Additional observations from a re-analysis of the deposited data

Results flagged for a closer look

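The genes below are listed because their change from day 10 to day 16 differed between the arms, by the interaction term of the limma fit (RA/CHIR minus RA, adjusted p under 0.05 and a difference of at least 1), as it did for 14.8% of all genes. Ecm1 itself was lower at day 16 in both arms, by log2 differences of -3.86 with RA and -0.80 with RA/CHIR, and was not tested.

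Of the neighbours of Ecm1, Adamtsl4 differed by 1.83 ± 0.35 (-0.44 with RA and 1.40 with RA/CHIR), Car14 by 1.13 ± 0.26 (0.11 and 1.24) and Ciart, a clock repressor, by -1.0 ± 0.36 (-0.49 and -1.49). Car14 was at 0.88 and no longer called without RA/CHIR-10d replicate 3, and Ciart was below the threshold when any 1 of 5 libraries was left out, the smallest change being -0.74 without RA/CHIR-16d replicate 1, and at -0.93 with quantile normalization.

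Of the TGF-beta genes, Tgfb3 differed by -2.45 ± 0.14 (1.02 with RA and -1.43 with RA/CHIR), Mmp2 by -1.66 ± 0.19 (1.49 and -0.17), Ltbp1 by -1.0 ± 0.12 (0.12 and -0.88) and Smad3 by 1.42 ± 0.12 (-0.95 and 0.47). Ltbp1 lay at the threshold. The alternatives of processing were run on this difference for Adamtsl4, Car14 and Ciart only, and not for the other genes listed here. Of the matrix glycoproteins, Mfap4 differed by -2.68 ± 0.36 (3.75 and 1.07), Spp1 by -2.36 ± 0.18 (2.21 and -0.15), Mfap2 by -2.01 ± 0.25 (1.86 and -0.15) and Fbln1 by -1.34 ± 0.08 (1.21 and -0.12).

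Of the retinoid genes, Aldh1a2 differed by -1.96 ± 0.16 (0.88 with RA and -1.07 with RA/CHIR), Cyp26a1 by -1.90 ± 0.17 (-0.95 and -2.85) and Tgm2 by 1.11 ± 0.18 (1.61 and 2.72). Of the Wnt targets, Notum differed by -4.77 ± 0.22 (-1.69 and -6.45), Nkd1 by -4.68 ± 0.19 (0.25 and -4.43) and Axin2 by -2.90 ± 0.20 (-1.36 and -4.26). Ciart had the highest adjusted p of the 17, at 0.027.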

How the results depend on the processing

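Ecm1 differed by about the same amount under all 9 alternatives run for each difference (scaling, pseudocount and leaving out each library in turn). RA/CHIR minus RA ranged from -5.12 to -4.91 on day 4, -6.39 to -6.27 on day 7, -6.44 to -6.23 on day 10 and -3.40 to -3.24 on day 16. RA-4d minus mES ranged from 5.10 to 5.41, and day 16 minus day 10 from -3.92 to -3.76 with RA and -0.91 to -0.72 with RA/CHIR.

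With a pseudocount of 0.1, 2192, 2964 and 3888 of all genes were called between the arms on days 4, 7 and 10, against 1259, 1762 and 2546. In the RA arm 1584, 754 and 2339 were called from day 4 to 7, 7 to 10 and 10 to 16, against 794, 329 and 1514, and in the RA/CHIR arm 1054, 526 and 3820, against 449, 176 and 2435. Under it, 5 neighbours of Ecm1 were called between the arms on days 7 and 16 each, 1, 2 and 1 in the steps of the RA arm, and 1 in each of the first 2 steps of the RA/CHIR arm. It also called 14 glycoprotein genes on day 7, 4 ECM1 binding partners on day 10 and 5 Wnt targets from RA-10d to RA-16d. With quantile normalization 2 neighbours were called on day 10, and 1 from RA-7d to RA-10d and from RA-10d to RA-16d, and the median of all genes in XEN minus mES moved from -0.129 to -0.02. A filter of 5 FPKM left 1 partner on day 4 and 1 neighbour on day 7. A fit of only the groups compared called 1 neighbour from RA-7d to RA-10d. Of the 20 genes most like Ecm1, 8 were shared with Spearman's correlation and 3 with the 24 columns of the arms. Without the RA-10d libraries, an alternative chosen after seeing the data, Fbxo32 was still the first.

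Replicate numbers did not pair the samples, since deviations of libraries with the same number correlated at -0.11 to 0.112. With the replicate block 1 neighbour was called from RA-7d to RA-10d, against 0.

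Leaving out single libraries gave 0 to 2 neighbours from RA-7d to RA-10d, 0 to 1 from RA-10d to RA-16d, 0 to 1 and 0 to 2 in the first 2 steps of the RA/CHIR arm, 2 to 4 between the arms on day 7 (4 without RA/CHIR-7d replicate 1) and on day 10 (2 without RA/CHIR-10d replicate 3), and 1 to 4 for the interaction. It gave 1 to 3 partners on day 4 (1 without RA/CHIR-4d replicate 2) and 3 to 5 TGF-beta ligand and latency genes on day 4. Named neighbours were recomputed in each comparison that called them, and named genes of the lists only between the arms on day 10. Of 933 such values under the alternatives, 15 were below the threshold and 0 reversed. The cause of these shifts was not tested.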

Other observations

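Marker lists not described above are given here as values, and their counts stand beside shares of all genes of 6.35% (higher) and 9.07% (lower) on day 10, and of 8.41% (higher) on day 16. Pluripotency markers summed to 8444 to 10066 FPKM in mES, 43.0 to 49.4 in RA-10d and 483.0 to 506.5 in RA/CHIR-10d, and on day 10, 7 of the 10 were higher with CHIR and none was lower. Parietal endoderm markers summed to 1902 to 1934 in RA-10d and 4416 to 4445 in RA/CHIR-10d, with 6 of 10 higher and 1 lower. Visceral endoderm markers summed to 64.9 to 75.6 and 166.4 to 187.8 in these groups, with 3 higher and 2 lower, and on day 16 all 10 were higher in the RA/CHIR arm. Endothelial markers summed to 19.5 to 22.9 and 44.2 to 49.8, with 1 of 7 tested higher and 1 lower. Cldn5 and Erg were at 0 in both groups, and Esam, the gene that was higher, stood at 45.1 ± 2.62 FPKM in RA/CHIR-10d. Macrophage markers summed to 30.3 to 32.7 and 121.7 to 125.4, with 2 of 5 tested higher, Cd68 and Lyz2. These sums were almost all Cd68, at 30.5 ± 1.22 and 121.8 ± 1.66 FPKM. Ptprc and C1qa were at 0 in both groups, Fcgr1 and C1qb in RA-10d, and Adgre1 in RA/CHIR-10d.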
